A study of Mus musculus with 8 samples.

Results

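The genes described here mark the inhibitory interneurons of the mouse hippocampus: they make or load the transmitter GABA, set interneuron identity, or encode the peptides and proteins by which interneuron subclasses are told apart. The 33 members were chosen by gene symbol from a table of 34094 genes, and all 33 had reads enough to be tested. RNA was sequenced from CA1, a field of the hippocampus, of C57BL/6 mice aged 2 months in 2 groups of 4 libraries. One group is a conditional knockout (cKO) of Brpf1, a scaffold protein of histone acetyltransferase complexes, and its titles call it a knockdown. The other group is wild type (WT), with no allele or agent named. No source used here gives the Cre driver, and so the cells in which Brpf1 was removed, or the deleted exons. A protocol counts 3 pairs of mice and ties no library to a mouse, so p-values measure only the spread among the libraries, part of which can be technical.

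Interneurons are a minority of hippocampal neurons and inhibit their targets with GABA, which glutamate decarboxylases make and the transporter Slc32a1 loads into vesicles. They arise in the ventral forebrain of the embryo: the medial ganglionic eminence (MGE) gives the Sst and Pvalb cells, and the caudal ganglionic eminence (CGE) gives the Vip and Cck cells. In CA1, Sst cells inhibit the dendrites of pyramidal cells, Pvalb and Cck basket cells inhibit their cell bodies, many Vip cells inhibit other interneurons, and Ndnf and Lamp5 cells include the neurogliaform cells, which release GABA widely.

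Libraries held 40330226 to 46559795 reads on genes in cKO and 42346644 to 49897832 in WT. Values below are normalized reads, that is reads divided by the authors' size factor of the library. Brpf1 itself had 848, 1032, 897 and 1004 in cKO libraries 1 to 4, against 1358, 1451, 1473 and 1380.1 in WT libraries 1 to 4, with no overlap between groups (log2 fold change -0.59 ± 0.09, SE, adjusted p = 0.132, limma; two-sided exact permutation p = 0.0286, the smallest that 4 against 4 libraries allow). By the authors' own deposited test, Brpf1 had an FDR of 1.47e-07. Several libraries stood apart from their labels' groups, as seen after the values were known. The cKO libraries 2 and 3 and the WT library 2 had almost no reads of the microRNA gene Mir8114. The WT libraries 3 and 4 were high in part of a list of septum and hypothalamus genes, Zic1 among them. Pan-neuronal genes were also higher in cKO: their sum over 15 genes was 359800.3 to 416495 in cKO and 322195 to 351852 in WT libraries, 1.14-fold on the means with no overlap, all 15 had a positive log2 fold change, none of the 15 was at 0, and 0 had an adjusted p under 0.05 (limma; 10 at an unadjusted p under 0.05). The main results of the members that these libraries or this sum touch are given with and without them.

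No interneuron gene passed the test across all genes. Of the 33 members, 0 had an adjusted p under 0.05 (limma with Benjamini-Hochberg adjustment over 26135 genes), while 0.0191% of all genes tested, or 5 genes, passed. Brpf1 itself did not pass this test either (adjusted p = 0.132, limma), though its groups did not overlap. A member without a call is therefore not shown to be unchanged. At an unadjusted p under 0.05 there were 2 members, Sst and Htr3a, or 6.06%, against 8.67% of all genes (4.07% were higher in cKO and 4.6% lower). The same 2 members had groups that did not overlap, both higher in cKO, which is 6.06% of members against 4.92% of all genes (2.57% higher in cKO). Both shares are near the background. The log2 fold change was positive for 24 of 33 members (72.7%), against 47.3% of all genes, with a median of 0.10 over members and -0.02 over all genes tested. The members ranged from -0.69 for Erbb4 to 0.39 for Htr3a. By the authors' deposited table, 0 of 33 members had an FDR under 0.05, against 0.657% of all genes in it, and 2 had a p under 0.05.

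**Figure D1:**
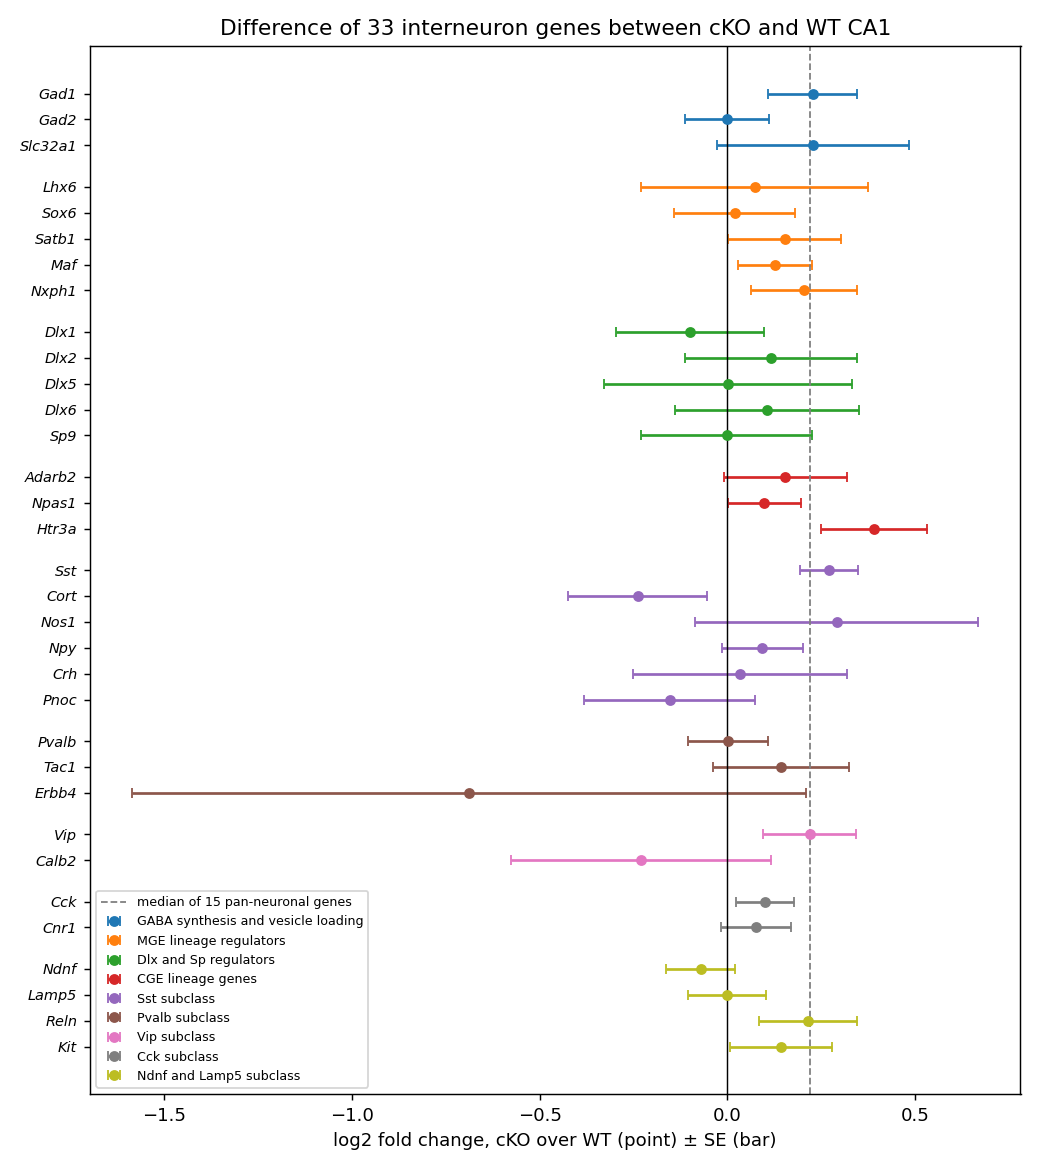
Log2 fold change of each of the 33 interneuron genes, cKO over WT, on the x axis with bars of ± SE, grouped and coloured by role or subclass; the dashed line is the median of 15 pan-neuronal genes, 0.22. Most points lie between 0 and that line, Htr3a, Nos1, Sst and, by little, Gad1 and Slc32a1 lie to its right, and Erbb4 has the widest bar.

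The members' higher values went with the higher pan-neuronal sum. Of the 33 members, 7 had a fold above the 1.14-fold of the pan-neuronal sum and 26 had one below it. Expressed per 1000 pan-neuronal reads, 26 of 33 members were lower in cKO on the means, the median ratio of cKO over WT was 0.933, and 0 members had groups that did not overlap. With the mean of the pan-neuronal genes as a covariate in the same limma fit, 12 of 33 log2 fold changes were positive and 0 members had an adjusted p under 0.05. In that fit 5 members (Gad2, Pnoc, Lhx6, Dlx6 and Dlx1), all with a negative log2 fold change, had an unadjusted p under 0.05. That is 15.2% of members, against 8.7% of all genes in that fit (5.2% with a negative one). Without the covariate, their ratios of means were 0.997 for Gad2, 0.895 for Pnoc, 1.14 for Lhx6, 1.06 for Dlx6 and 0.957 for Dlx1. The pan-neuronal genes themselves were higher in cKO, so this fit cannot separate a difference between groups from one in the covariate. In bulk tissue, fewer cells of a type and less RNA per cell cannot be told apart.

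Per kilobase of annotated exon, which lets levels be compared between genes, the peptide genes Sst, Cck and Npy led. Other peptide genes were lower, such as Vip with 238 normalized reads per kilobase and Crh with the least of all members. Sst had 8084 normalized reads per kilobase over all 8 libraries, Cck 4852 and Npy 2152. Cnr1 with 1649, Pvalb with 1559 and Gad1 with 1521 normalized reads per kilobase had ranges over libraries that overlapped each other. Gad2 had 1092, Calb2 813, Slc32a1 647 and Lamp5 480.1 normalized reads per kilobase. The lowest were Dlx5 with 55.8, Sp9 with 43.2 and Crh with 42.4. Several of the high members are not confined to interneurons: pyramidal cells also make Cck and Cnr1, and mossy cells of the dentate hilus in mice make Calb2.

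The genes of GABA synthesis and vesicle loading did not differ beyond the test. Gad1, the larger of the glutamate decarboxylases, had 11744, 11314, 12785 and 14136 normalized reads in cKO libraries 1 to 4, against 8683, 10662, 13094 and 10545 in WT libraries 1 to 4. The groups overlapped, with the WT library 1 lowest of all and the cKO library 4 highest (log2 fold change 0.23 ± 0.12, SE, adjusted p = 0.608, limma). Gad2, the decarboxylase found mainly at nerve endings, averaged 6409 ± 762 in cKO and 6425 ± 896 in WT (SD, n = 4 each), and its log2 fold change was -0.0011 ± 0.11 (SE). Slc32a1, the vesicular GABA transporter, had 1718, 1537, 2150.1 and 2253 in cKO libraries 1 to 4, against 1025, 1391, 2489.6 and 1914 in WT libraries 1 to 4. Here WT libraries spread more widely than cKO libraries: WT libraries 3 and 1 were the highest and the lowest of all 8 (log2 fold change 0.23 ± 0.26, SE, adjusted p = 0.830, limma). The 3 genes together summed to 20818 ± 2271 in cKO and 18876 ± 3251 in WT (normalized reads ± SD, n = 4 each), 1.10-fold, with overlap. Gad1 reads per 100 Gad2 reads were 183, 200.8, 208 and 189.9 in cKO libraries 1 to 4, against 150.3, 186, 171 and 161 in WT libraries 1 to 4. This ratio, chosen after its values were seen, was higher in 3 of the cKO libraries than in any WT library, and is given without a test.

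**Figure D2:**
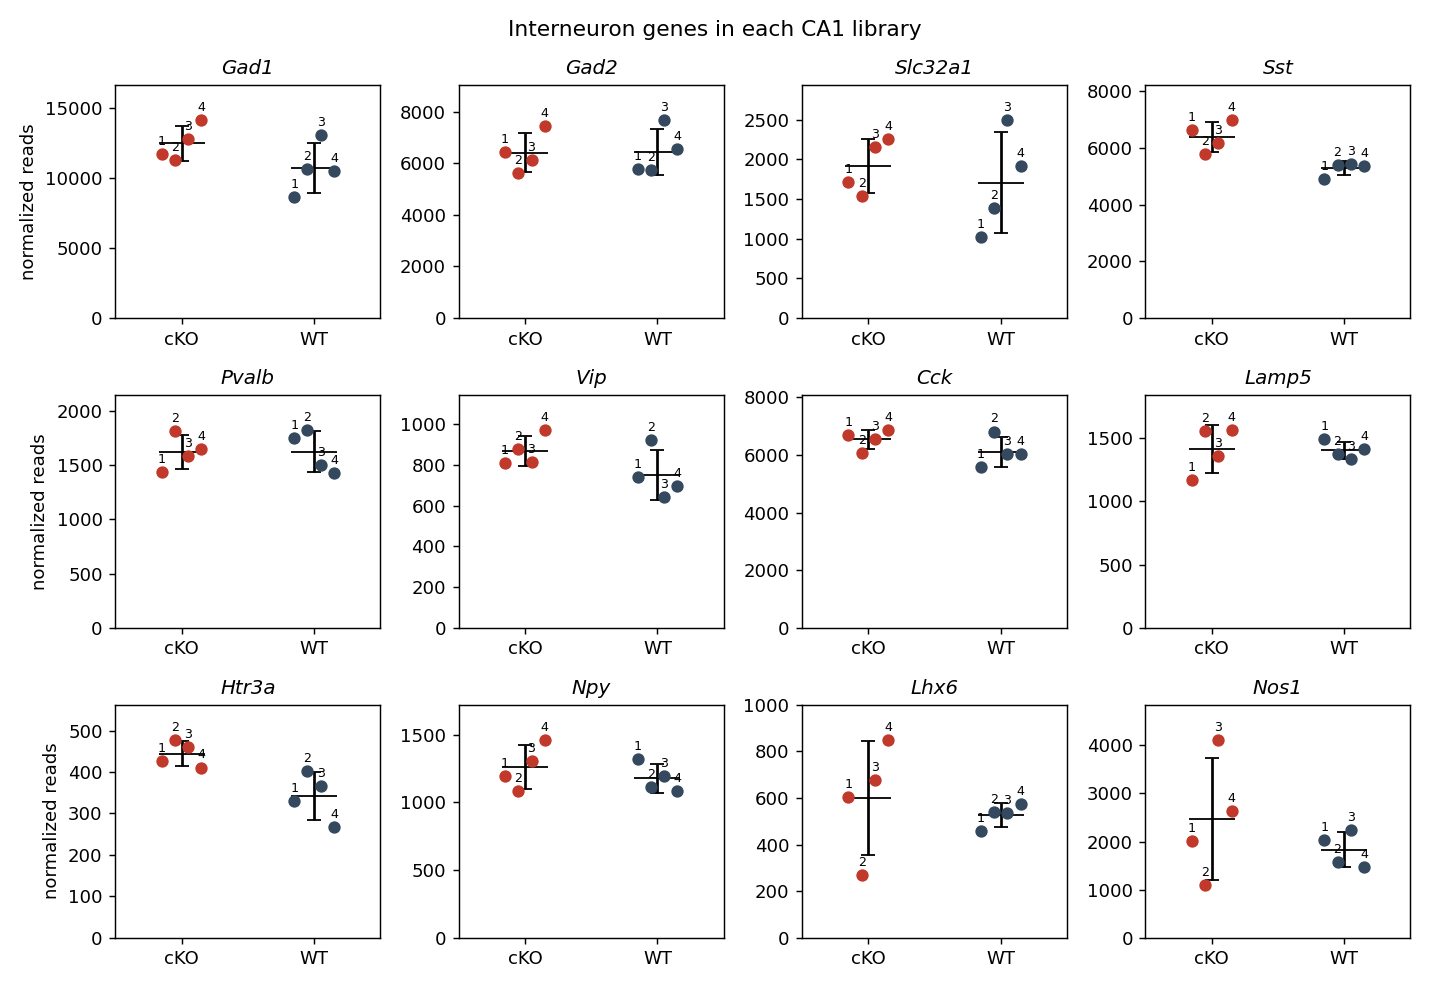
Normalized reads of 12 interneuron genes (y axes, from 0) in the 4 cKO and 4 WT libraries, numbered by replicate; lines and bars are means ± SD. For Sst and Htr3a every cKO point is above every WT point, and for the other 10 genes the groups overlap.

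Septal genes that were high in WT libraries 3 and 4 are given here beside the GABA genes. Zic1, a transcription factor of septum and other midline forebrain, had 385, 469.8, 526 and 634 normalized reads in cKO libraries 1 to 4, against 601, 629.8, 2395 and 1959.6 in WT libraries 1 to 4. Zic4 had 57.2, 75.3, 96.1 and 49.8 in cKO libraries 1 to 4, against 83.2, 82.3, 356 and 347 in WT libraries 1 to 4, and Isl1, a factor of striatal, septal and hypothalamic neurons, had 15.9, 9.04, 6.56 and 10.53 in cKO libraries 1 to 4, against 0, 3.05, 53.9 and 60.5 in WT libraries 1 to 4. Lhx8 and Chat mark cholinergic neurons of the basal forebrain, and Zic4, Isl1 and Lhx8 were picked out after their values were seen. Lhx8 was at 0 in every cKO library and in WT libraries 1 and 2, with 14.9 and 17.3 normalized reads in WT libraries 3 and 4. Chat was at 0 in 3 cKO libraries and WT library 1, with 2.19 in cKO library 3, 5.08 in WT library 2 and 19.5 and 14.7 in WT libraries 3 and 4. The 17 septum and hypothalamus genes in the table, some of which interneurons also use in development, summed to 1035 to 1385 in cKO and 1222 to 3934 in WT libraries. The WT libraries 3 and 4 were thus the only libraries above 1385 normalized reads for this sum. Zic1 made up the greater part of it in both, and not every listed gene was high there. The hypothalamic genes Pomc and Agrp had 19.5 and 15.8 in WT library 3 and 31.1 and 9.50 in WT library 4. In cKO libraries they had 34.5 to 54.6 and 19.7 to 22.1.

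Without these 2 WT libraries, Slc32a1 had a log2 fold change of 0.66 ± 0.19 and Gad1 one of 0.37 ± 0.12 (SE), both with groups that did not overlap and with adjusted p = 0.4996 (limma; over all 19 alternative settings adjusted p was 0.49 to 0.995 for Slc32a1 and 0.384 to 0.898 for Gad1). Left out singly, WT library 3 gave Gad1 a log2 fold change of 0.33 ± 0.10 and WT library 4 one of 0.22 ± 0.14 (SE), against 0.23 with all libraries. Leaving out WT library 1, the lowest, gave log2 fold changes of 0.0099 ± 0.20 for Slc32a1 and 0.13 ± 0.11 for Gad1 (SE). With the pan-neuronal covariate both had the other sign, at -0.57 ± 0.25 for Slc32a1 and -0.16 ± 0.12 for Gad1 (SE). Without WT libraries 3 and 4, at an unadjusted p under 0.05, there were 4 members (Gad1, Slc32a1, Sst and Reln), against 8.88% of all genes, and 6 members had no overlap, against 19.8% of all genes with 2 WT libraries left. Sp9, at 343 normalized reads in WT library 3 and 155 to 222 in the other 7 libraries, had a log2 fold change of -0.0021 with all libraries and 0.37 without these 2. In WT library 4, Slc32a1 at 1914 and Sp9 at 220 lay within the cKO ranges of 1537 to 2253 and 198 to 222. Gad1, at 10545 in that library, lay below every cKO library. The part of septal tissue in these values was not tested beyond leaving the libraries out.

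**Figure D3:**
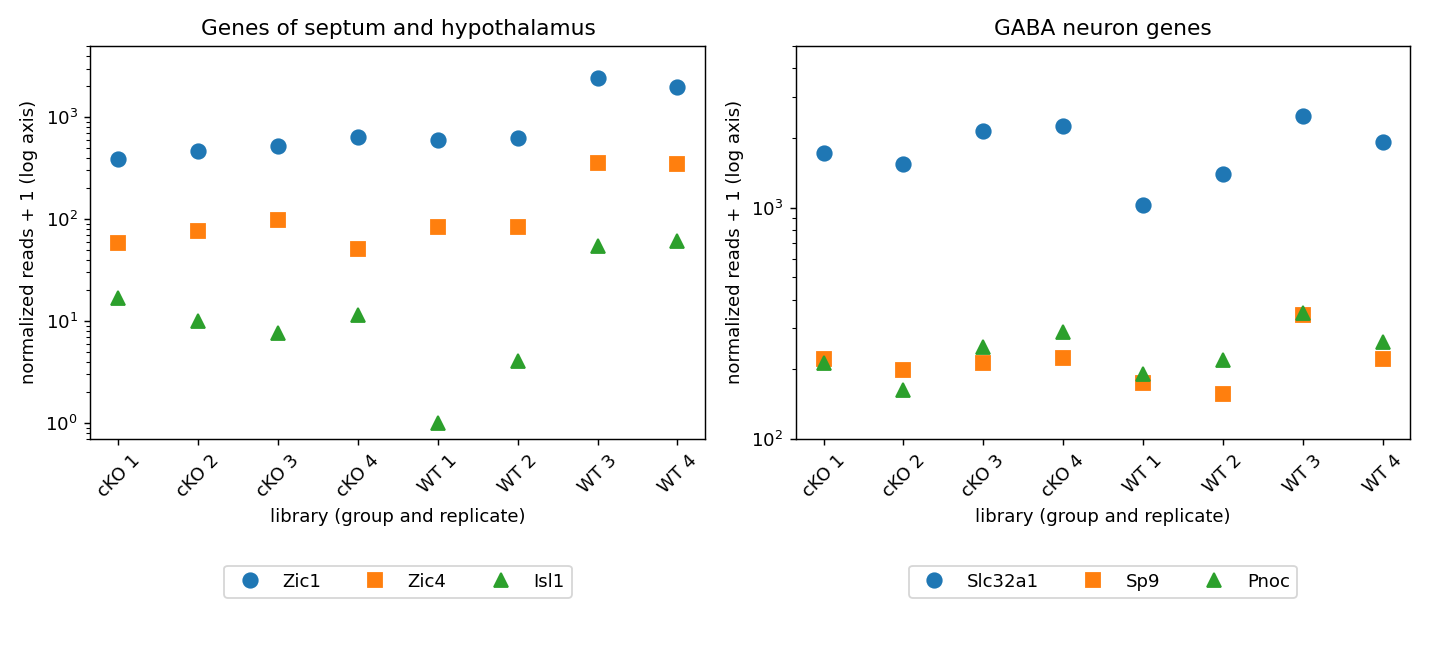
Normalized reads + 1 (log axes) in each library for Zic1, Zic4 and Isl1 (left) and for Slc32a1, Sp9 and Pnoc (right). Zic1 and Zic4 are highest in WT libraries 3 and 4, and Slc32a1, Sp9 and Pnoc are each highest in WT library 3.

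Regulators of the MGE lineage had small positive log2 fold changes in 5 of 5 genes, and 0 passed. With the pan-neuronal covariate 4 of the 5 were negative, at -0.80 for Lhx6 (unadjusted p = 0.0488, limma), -0.34 for Sox6, -0.29 for Satb1 and -0.12 for Nxph1. The sum of the 5 genes was 1.12-fold in cKO, and 0.971-fold as a share of the pan-neuronal sum. Lhx6, a LIM homeodomain factor needed for the identity of Sst and Pvalb cells, had 603, 267, 678 and 848 normalized reads in cKO libraries 1 to 4, against 457, 538, 535 and 576 in WT libraries 1 to 4. The cKO group spanned more than the WT group on both sides, with cKO library 2 the lowest of all 8 and cKO libraries 1, 3 and 4 the highest (log2 fold change 0.07 ± 0.30, SE, adjusted p = 0.976, limma). Satb1, a chromatin organizer of maturing Sst cells that other neurons also express, had 3275, 2589, 3773 and 4692 in cKO libraries 1 to 4, against 3019.99, 3267, 3092 and 3217 in WT libraries 1 to 4. Again cKO library 2 was lowest and cKO library 4 highest, with the 4 WT libraries close together. Nxph1, a secreted ligand of neurexins, had 1396, 1069, 1662 and 1466 in cKO libraries 1 to 4, against 1256, 987, 1283 and 1295 in WT libraries 1 to 4, with overlap (log2 fold change 0.20 ± 0.14, SE, adjusted p = 0.690). Sox6, which acts after Lhx6, averaged 852 ± 166 in cKO and 836 ± 131 in WT (SD, n = 4 each). Maf, which acts in MGE-derived cells, averaged 1058 ± 93.4 in cKO and 969 ± 83.4 in WT (SD, n = 4 each).

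The Dlx genes, homeobox factors of GABAergic precursors that adult interneurons keep, and Sp9, a zinc-finger factor of the same lineages, showed no common direction: 3 of 5 log2 fold changes were positive and the median was 0.001. Dlx1 had 1067, 732, 1094 and 1531 normalized reads in cKO libraries 1 to 4, against 1033, 1115, 1427 and 1049 in WT libraries 1 to 4. Its cKO library 2 was the lowest of all 8 and its cKO library 4 the highest (log2 fold change -0.10 ± 0.20, SE, adjusted p = 0.922, limma). Dlx5 had 176, 72.3, 101.6 and 161 in cKO libraries 1 to 4, against 70.7, 152, 134 and 143 in WT libraries 1 to 4. Dlx6 ranged over 127 to 227 in cKO and 122 to 237 in WT libraries, and Dlx2 over 121 to 201.1 in cKO and 119 to 206 in WT libraries. Groups overlapped for each of the Dlx genes. Dlx1as, annotated on the strand opposite to Dlx1 and overlapping its exons, had 267, 108, 227 and 283 in cKO libraries 1 to 4, against 251, 179, 245 and 236 in WT libraries 1 to 4. Dlx6os1, on the opposite strand at Dlx6 but with no annotated exon overlapping it, had 1207, 683, 1049.9 and 1081 in cKO libraries 1 to 4, against 982, 1094, 1201 and 1219 in WT libraries 1 to 4. Both were lowest in cKO library 2, as Dlx1 was. No source used here says whether the authors counted by strand, so reads of Dlx1 and Dlx1as, and of Sp9 and its opposite-strand neighbour Cir1, whose exons also overlap, may be shared.

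Genes of the CGE lineage were led by Htr3a. Htr3a, a serotonin-gated ion channel found in CGE-derived interneurons, had 428, 477, 461 and 411 normalized reads in cKO libraries 1 to 4, against 329.8, 403, 365 and 268 in WT libraries 1 to 4. All cKO values exceeded all WT values, the nearest pair being 411 in cKO library 4 and 403 in WT library 2. The means were 444 ± 30.2 in cKO and 342 ± 57.6 in WT (SD, n = 4 each), 1.30-fold, and the log2 fold change of 0.39 ± 0.14 (SE) had an unadjusted p of 0.0192 and an adjusted p of 0.515 (limma; 0.352 to 0.898 over the 19 alternative settings). Of these settings, 15 kept an unadjusted p under 0.05. It was 0.0787 with the pan-neuronal covariate, 0.0688 without the 3 libraries low in Mir8114 and 0.104 without WT libraries 3 and 4 (limma). The other exception was the fit without WT library 4, with a log2 fold change of 0.28 ± 0.13 (SE). Per 1000 pan-neuronal reads the groups overlapped, at 1.16 ± 0.139 in cKO and 1.01 ± 0.185 in WT (SD, n = 4 each). Adarb2, an RNA-binding protein that marks CGE-derived cells, had 1485, 1199, 1708 and 1229.5 in cKO libraries 1 to 4, against 1065, 1718, 1114 and 1196 in WT libraries 1 to 4, with WT library 2 the highest of all 8. Npas1, a basic helix-loop-helix factor, averaged 589 ± 38.2 in cKO and 549.7 ± 27.4 in WT (SD, n = 4 each). Both had positive log2 fold changes of 0.15 and 0.10.

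Sst was the member with the smallest p. Sst encodes somatostatin, the peptide of dendrite-targeting interneurons, and had 6611, 5786, 6161 and 6961 normalized reads in cKO libraries 1 to 4, against 4909, 5397, 5430.1 and 5373 in WT libraries 1 to 4. All 4 cKO libraries were above all 4 WT libraries, and WT library 1 lay apart below the other WT libraries. The ratio of means was 1.21, the log2 fold change 0.27 ± 0.08 (SE), the unadjusted p 0.00496 and the adjusted p 0.496 (limma; 0.326 to 0.898 over the 19 alternative settings, 18 of which kept an unadjusted p under 0.05). The exception was the fit with the pan-neuronal covariate, in which the log2 fold change was 0.12 ± 0.10 (SE) with an unadjusted p of 0.263. In the authors' deposited table, Sst had an FDR of 0.0506. Per 1000 pan-neuronal reads Sst was 17.6, 16.1, 15.7 and 16.7 in cKO libraries 1 to 4, against 14.3, 16.8, 15.4 and 16.2 in WT libraries 1 to 4, so that the groups overlapped.

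The somatostatin promoter is a textbook example of control by cyclic AMP, through an element bound by CREB, and is shown here beside that of its close relative Cort (cortistatin). The sequences are RefSeq's for GRCm38.p6, each the 100 bases before the annotated start on the minus strand, from chr16:23890845-23890944 for Sst and chr4:149126764-149126863 for Cort. Capitals mark the motif TGACGTCA, which reads the same on both strands.
Sst: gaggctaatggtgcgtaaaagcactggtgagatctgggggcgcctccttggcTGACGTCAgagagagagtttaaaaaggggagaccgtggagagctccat
Cort: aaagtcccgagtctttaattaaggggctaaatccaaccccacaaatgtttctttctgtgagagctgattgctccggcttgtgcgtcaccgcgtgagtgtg
In Sst the motif lies 48 to 41 bases before the start. RefSeq promoters covered 25 members with 41 windows, each from 250 bases before to 50 after a start. Of these members, Sst alone held the motif, but its element was known beforehand, so this is no test. The remaining members had no such window and were not searched. Only whole matches were sought, so the bases CGTCA, which the Cort sequence also holds, were not counted. Over all genes, 588 of 32851 such windows held it (1.79%), which is a share of windows and not of genes. A match describes the letters and not binding, and no link between the motif and the values of either gene was tested.

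Cort, a peptide close to somatostatin and made by some of the same cells, had 189, 168, 282 and 185 normalized reads in cKO libraries 1 to 4, against 258, 198, 242 and 261 in WT libraries 1 to 4. The values of cKO libraries 1, 2 and 4 are below every WT library and cKO library 3 is above them all, so the groups overlapped (log2 fold change -0.24 ± 0.19, SE, adjusted p = 0.722, limma). Cort reads per 100 Sst reads were 2.87, 2.90, 4.58 and 2.65 in cKO libraries 1 to 4, against 5.26, 3.67, 4.45 and 4.85 in WT libraries 1 to 4, a ratio chosen after its values were seen, with cKO library 3 within the WT range. Without the 3 libraries low in Mir8114, the log2 fold change of Cort was -0.44 ± 0.18 (SE) with an unadjusted p of 0.0461 and no overlap between 2 cKO and 3 WT libraries.

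Other genes of the Sst list, which are not all confined to Sst cells, varied by library more than by group. Nos1, the neuronal nitric oxide synthase of long-range and neurogliaform cells, had 2017, 1093, 4110.1 and 2637 normalized reads in cKO libraries 1 to 4, against 2034, 1579.6, 2242 and 1479 in WT libraries 1 to 4. The cKO libraries held both the highest and the lowest value, 3.76-fold apart, against 1.52-fold within WT (log2 fold change 0.29 ± 0.38, SE, adjusted p = 0.860, limma). Without cKO library 2 the log2 fold change of Nos1 was 0.63 and without cKO library 3 it was -0.01. Npy, neuropeptide Y, had 1194, 1081, 1304 and 1459 in cKO libraries 1 to 4, against 1318, 1111, 1191 and 1086 in WT libraries 1 to 4 with overlap. Crh, the corticotropin-releasing hormone, was low, at 35.4 to 79.3 in cKO and 45.6 to 69.95 in WT libraries. Pnoc, the precursor of nociceptin, had 162 to 289 in cKO and 189 to 348 in WT libraries. The 6 genes of the Sst list, Nos1 among them, summed to 10595 ± 1678 in cKO and 8836 ± 453 in WT (SD, n = 4 each), 1.20-fold with overlap, of which Sst made up the greater part. This sum is thus not a measure of Sst cells alone.

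Of 16 further genes known in Sst cells, 0 passed in either direction, and 3 (18.8%) had an unadjusted p under 0.05, all higher in cKO, against 8.67% of all genes in either direction and 4.07% higher in cKO. Of the 16 log2 fold changes 10 were positive, with a median of 0.09. One of these 3 was Calb1, calbindin, which dentate granule and CA1 pyramidal cells also make, with 9875 ± 507 in cKO and 8907 ± 403 in WT (normalized reads ± SD, n = 4 each) and overlap between groups. Pde1a, a phosphodiesterase that breaks down cyclic nucleotides, had a log2 fold change of -0.04.

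Pvalb, the calcium-binding protein of fast-spiking basket cells, had 1439.5, 1817, 1585 and 1649.9 normalized reads in cKO libraries 1 to 4, against 1749.8, 1820.3, 1499.5 and 1425 in WT libraries 1 to 4. The groups covered nearly the same range, and the log2 fold change was 0.0019 ± 0.11 (SE). Tac1, the precursor of substance P, averaged 392.4 ± 64.1 in cKO and 359 ± 84.6 in WT (SD, n = 4 each). Sst reads per 100 Pvalb reads, chosen after the values were seen, were 459, 318, 389 and 422 in cKO libraries 1 to 4, against 281, 296, 362 and 377 in WT libraries 1 to 4, and overlapped. Of 19 further genes of Pvalb cells, 0 passed, 2 (10.5%, against 8.67% of all genes) had an unadjusted p under 0.05 and 13 had a positive log2 fold change, with a median of 0.09. Cplx1, a synaptic complexin that many neurons express, averaged 19463 ± 1598 in cKO and 16191 ± 840.2 in WT (SD, n = 4 each) and did not overlap. Its log2 fold change was 0.26 ± 0.08 with all libraries, 0.31 ± 0.10 without WT libraries 3 and 4, 0.27 ± 0.12 without the 3 libraries low in Mir8114 and 0.12 ± 0.10 with the pan-neuronal covariate (SE). Lgi2, a secreted synaptic protein, averaged 2424 ± 522 in cKO and 1929 ± 122 in WT (SD, n = 4 each). The potassium channel gene Kcnc1, typical of fast-spiking cells, had a log2 fold change of 0.15.

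Erbb4 split the libraries in another way than by genotype. Erbb4, the neuregulin receptor of interneurons, had 4209.5, 651, 551 and 3895 normalized reads in cKO libraries 1 to 4, against 3989, 847, 3495 and 3354 in WT libraries 1 to 4. Values in cKO libraries 2 and 3 and WT library 2 were 551 to 847, and the other 5 libraries had 3354 to 4210. The highest library was 7.64-fold above the lowest, and Erbb4 was the only one of 24 members with a mean of at least 500 normalized reads to spread over more than 5-fold, as did 1.01% of all 10017 genes with such a mean. The same 3 libraries had 1.00 to 1.09 normalized reads of Mir8114, against 1125 to 1475 in the other 5. Gm38253, a gene model with no functional name, was also lowest in them, at 22.1 and 14.2 in cKO libraries 2 and 3 and 39.6 in WT library 2, against 83.3 to 141 in the others. Mir8114 and Gm38253 were picked out after their values were seen. The other members did not show this split in size: the next largest spread was that of Nos1.

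With all libraries the log2 fold change of Erbb4 was -0.69 ± 0.90 (SE), adjusted p = 0.863 (limma), and without these 3 libraries it was 0.17 ± 0.12 (SE), adjusted p = 0.898 (0.679 to 0.986 over the 19 alternative settings). In that smaller comparison of 2 cKO with 3 WT libraries, Cnr1, Sst, Lhx6 and Vip were higher and Cort lower at an unadjusted p under 0.05. These 5 members are to be read against 4.77% of all genes, and the 11 members without overlap against 20.8%. None of the 33 had an adjusted p under 0.05, and the reason these libraries stand apart was not tested.

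**Figure D4:**
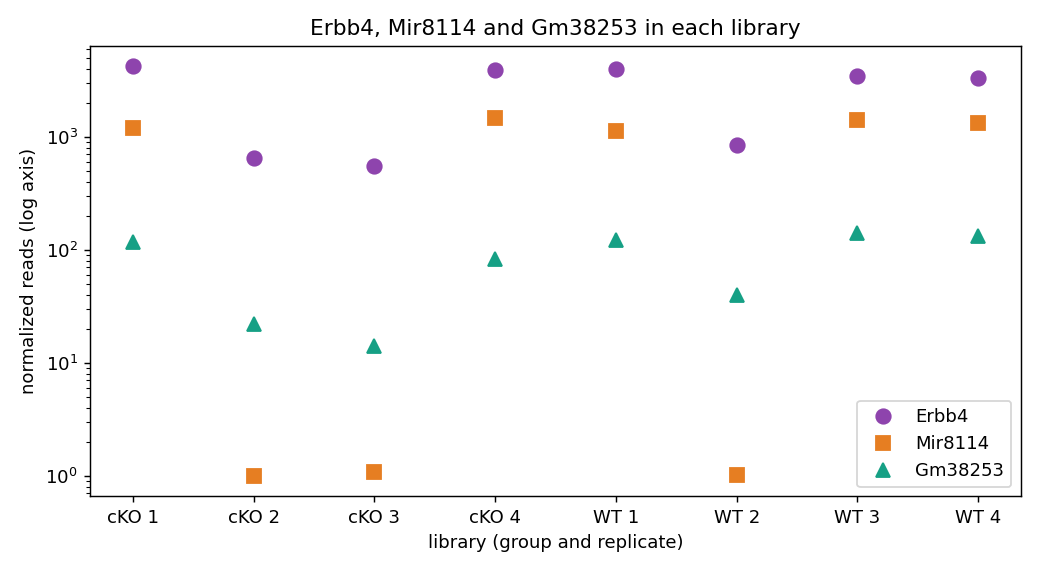
Normalized reads (log axis) of Erbb4, Mir8114 and Gm38253 in each library. In cKO libraries 2 and 3 and WT library 2 all 3 genes are low, with Erbb4 at 551 to 847 against 3354 to 4210 in the other libraries.

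Vip, the vasoactive intestinal peptide of interneuron-selective cells, had 809, 880.4, 815 and 970.01 normalized reads in cKO libraries 1 to 4, against 739, 923, 643 and 698 in WT libraries 1 to 4. WT library 2 lay within the cKO range and the other 3 WT libraries lay below it (log2 fold change 0.22 ± 0.12, SE, adjusted p = 0.627, limma). Calb2, calretinin, had 1763, 1316, 1535 and 658 in cKO libraries 1 to 4, against 973, 1258, 1741 and 2086 in WT libraries 1 to 4. The lowest value was that of cKO library 4 and the highest that of WT library 4 (log2 fold change -0.23 ± 0.35, SE, adjusted p = 0.882, limma). Calb2 is also abundant in thalamus, whose 13 other listed genes summed to 6485 to 7166 normalized reads in cKO and 7052 to 8154 in WT libraries. That sum was highest of its group in cKO library 4, where Calb2 was lowest, and highest of all in WT libraries 3 and 4. The part of thalamic RNA in Calb2 was not tested. Cck, cholecystokinin, averaged 6548 ± 331 in cKO and 6115 ± 515 in WT, and Cnr1, the cannabinoid receptor of Cck basket cells, 10921 ± 1252 in cKO and 10326 ± 812 in WT (SD, n = 4 each). Their log2 fold changes were 0.10 ± 0.08 and 0.08 ± 0.09 (SE), with overlap. Of 20 further genes of Vip, Cck and CGE cells 0 passed and 10 were positive, with a median of -0.01. The 1 gene with an unadjusted p under 0.05 was Chat, which stands under the septal genes too. Prox1, a factor of CGE-derived interneurons and of dentate granule cells, had a log2 fold change of -0.10, and Sncg, gamma-synuclein of Cck cells, averaged 118 ± 17.7 in cKO and 155 ± 34.6 in WT (SD, n = 4 each).

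Ndnf, a secreted factor of neurogliaform cells, had 1164, 1156, 997 and 1230.5 normalized reads in cKO libraries 1 to 4, against 1093, 1264, 1209 and 1200.4 in WT libraries 1 to 4. Lamp5, a lysosome-associated membrane protein of the same cells and of some cortical neurons, had 1169, 1558, 1361 and 1561 in cKO libraries 1 to 4, against 1491, 1373, 1337 and 1415 in WT libraries 1 to 4. The groups overlapped for both genes, and the log2 fold changes were -0.07 ± 0.09 and -0.0003 ± 0.10 (SE). Reln, reelin, the secreted protein of neurogliaform and some Sst cells, had 1935, 2001, 2303 and 2698 in cKO libraries 1 to 4, against 1601, 1815, 2227 and 2049 in WT libraries 1 to 4. Its cKO library 4 was the highest and its WT library 1 the lowest (log2 fold change 0.21 ± 0.13, SE, adjusted p = 0.649, limma). Kit, a receptor tyrosine kinase, averaged 3307 ± 653 in cKO and 2965 ± 329 in WT (SD, n = 4 each). Of 16 further genes of these cells that were tested, 0 passed, 6 were positive and the median was -0.06. Lsp1, a cytoskeletal protein best known in leukocytes, was the only one with an unadjusted p under 0.05, at 131 ± 23.7 in cKO and 88.5 ± 23.1 in WT (SD, n = 4 each), with overlap. Cacna2d1, a calcium channel subunit, had 4886, 11598, 5249 and 5124 in cKO libraries 1 to 4, against 4822, 5069.9, 12705 and 12912 in WT libraries 1 to 4. Its high libraries were cKO library 2 and WT libraries 3 and 4. Its log2 fold change was -0.35 ± 0.46 with all libraries and 0.34 ± 0.36 without these 2 WT libraries (SE).

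The members' values went together by library. In cKO library 2, 23 of 33 members had the lowest value of their group (69.7%), against 31.3% of 15761 genes with a mean of at least 50 normalized reads. In cKO library 4, 18 of 33 had the highest (54.5%, against 29.9% of those genes). In WT library 1, 16 of 33 had the lowest (48.5%, against 31.1%). The median deviation of the members from their group mean, in log2 units, was 0.15 in cKO library 4 and -0.19 in cKO library 2, and -0.11 in WT library 1. That spread within cKO exceeds the median log2 fold change of 0.10 between groups. The pan-neuronal sum was also lowest of its group in cKO library 2 and highest in cKO library 4, at 359800.3 and 416495 normalized reads. Excitatory neuron genes had like median deviations, -0.16 in cKO library 2 and 0.18 in cKO library 4, but 0.012 in WT library 1. Dentate granule genes went the other way in cKO library 2, at 0.12. The shift in these 2 cKO libraries was thus not particular to interneuron genes. Without cKO library 2, 6 members (Nxph1, Sst, Satb1, Htr3a, Lhx6 and Nos1) had an unadjusted p under 0.05, all higher in cKO, against 10.3% of all genes, and 0 had an adjusted p under 0.05.

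**Figure D5:**
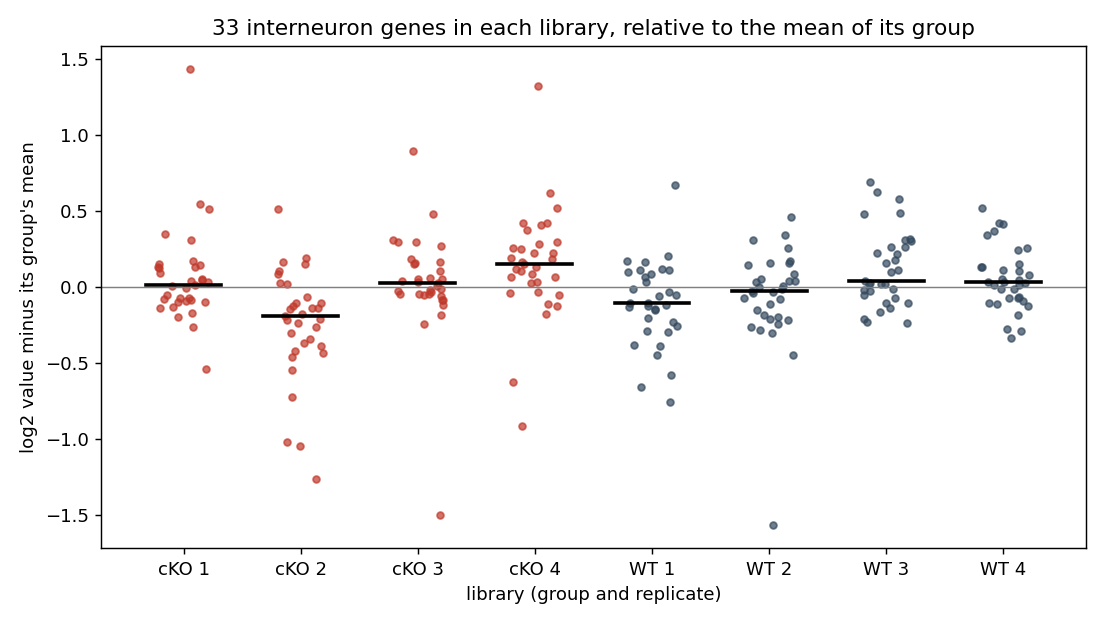
Log2 value of each of the 33 interneuron genes minus the mean of its group (y axis) in each library, 1 point per gene, with the median as a black line. Medians run from -0.19 in cKO library 2 to 0.15 in cKO library 4, and WT libraries lie between them.

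Genes on the receiving side and genes of interneuron development were read from 2 further lists. Of 32 receptors, transporters and enzymes for GABA and the peptides, 0 passed. At an unadjusted p under 0.05, 5 were higher and 1 lower in cKO, or 18.8% against 8.67% of all genes (4.07% higher and 4.6% lower). The log2 fold change was positive for 20 of 32 (62.5%, against 47.3% of all genes), with a median of 0.10. Sstr3, a somatostatin receptor of neuronal cilia, had 1766, 1351, 1732 and 1515 normalized reads in cKO libraries 1 to 4, against 1300.4, 1261, 1255 and 1282 in WT libraries 1 to 4. The 4 cKO values all exceeded the WT values, with the 4 WT libraries close together (log2 fold change 0.31 ± 0.10, SE, adjusted p = 0.496, limma). It was 0.30 ± 0.13 without WT libraries 3 and 4, 0.35 ± 0.12 without the 3 libraries low in Mir8114 and 0.27 ± 0.15 with the pan-neuronal covariate (SE), the last with an unadjusted p of 0.116 (limma). Gabbr1, a subunit of the GABA-B receptor, had a log2 fold change of 0.11. Of 25 genes of early GABAergic development, 0 passed, 7 were positive and the median was -0.10. Zeb2, a repressor that steers MGE-derived cells toward cortex and that oligodendrocytes also express, averaged 10447 ± 661 in cKO and 13017 ± 1599 in WT with overlap (SD, n = 4 each; log2 fold change -0.31 ± 0.09, SE, adjusted p = 0.496, limma). The oligodendrocyte list was lower in cKO as well, with 0 of 15 log2 fold changes positive, 0 past the test, a median of -0.31, no gene at 0 and sums of 107366 to 166177 in cKO and 131581 to 189319 in WT libraries, and its part in the Zeb2 value was not tested.

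Markers of the other cells of the sample had these values. All 15 choroid plexus genes were lower in cKO on the log2 scale, with a median of -0.80, 0 past the test, no gene at 0 and sums of 21953 to 74644 in cKO and 14572 to 249644 in WT libraries. Sums of CA1 pyramidal genes were 34613 to 44410.4 in cKO and 31884 to 42215 in WT libraries, of dentate granule genes 34957 to 41783 in cKO and 38171 to 41345 in WT libraries, and of excitatory neuron genes 221094 to 257287 in cKO and 221823 to 259826 in WT libraries. The groups overlapped for each, with medians of -0.06, -0.09 and 0.08 on the log2 scale. Dentate, thalamic and choroid genes were thus read in every library of this CA1 tissue. With the choroid plexus genes as a covariate, 22 of 33 members were positive and 0 had an adjusted p under 0.05.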

How the data were processed

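RNA-seq libraries of CA1 tissue (Trizol extraction, stranded mRNA kit, per the labels' protocols) were compared, 4 cKO against 4 WT. STAR, StringTie and DESeq2 and the build mm9 are named, per the submitters' processing notes, without versions or roles. The authors deposited log2 values per gene and library, with their own log2 fold change, p-value and FDR. The deposited values are log2 of reads over a size factor, plus 1: 100% of values gave whole reads (tolerance 0.001), from which the depth came. The unit was the one the design had assumed; limma-voom on the recovered reads was an alternative and called 4 genes.

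The test, on genes reaching a normalized value of 1 in 4 or more libraries, was limma 3.58.1 in R 4.3.3 (trend and robust estimation, pseudocount 1, no covariate), with Benjamini-Hochberg adjustment over all genes and a threshold of 0.05. Sums, ratios and lists are described without a test. Levels between genes are per kilobase of exon in the GENCODE annotation. The files' build differs from that of the reference, so gene coordinates are not given, and promoters are RefSeq's of GRCm38.p6. The members and lists were chosen with earlier results of these data known, and some genes stand in more than 1 list. Named genes are the members, Brpf1, the 2 smallest p and 2 highest levels of each pathway list, the 2 highest of each cell type list and overlapping neighbours; the text gives a part of them, some are not reported here, and it says where a gene was picked after its values were seen. Replicate numbers did not pair the libraries (correlations of same-numbered deviations from -0.04 to 0.03). Alternatives were other scaling, filters, pseudocount, array weights, limma-voom, a replicate block, covariates, and leaving out libraries; leaving out the 3 libraries low in Mir8114 and the 2 high in Zic1 was added after seeing the data. The procedure was run on simulated data with the same variation between libraries for every gene and no libraries that stood apart. That run does not show how well differences as small as those of the members are found in these data. Figures used matplotlib 3.10.9.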

Additional observations from a re-analysis of the deposited data

Results flagged for a closer look

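In 68 groups of 4 libraries (each member in each genotype, and Brpf1), the value farthest out was set against Dixon's criterion, which chance alone passes in about 1 of 20 groups. It was passed by 4 groups. The lowest cKO value of Dlx2, 121 normalized reads in library 1, lay far below the other cKO libraries between 196 and 201.1. The highest cKO value of Npas1, 646 normalized reads in library 1, lay above the others at 562 to 576. The lowest WT value of Sst, 4909 normalized reads in library 1, lay below the other WT libraries at 5373 to 5430. The lowest WT value of Nxph1, 987 normalized reads in library 2, lay below the others at 1256 to 1295.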

How the results depend on the processing

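Across the 19 alternative settings, 0 of 33 members had an adjusted p under 0.05, and Brpf1 kept a negative log2 fold change with adjusted p from 0.0619 to 0.874. Of 627 values of member genes, 552 kept their sign, and 75 in 24 genes changed sign, none of them called in either setting. The genes called over all genes numbered 5, against 8 with array weights, 2 with the replicate block, 3 with the pan-neuronal covariate, 1 without the 3 libraries low in Mir8114, 11 without the 2 high in Zic1, and 3 to 7 with 1 library left out. Members with an unadjusted p under 0.05 numbered 2, against 4 with the replicate block, 5 with the pan-neuronal covariate, 5 without the 3 libraries, 4 without the 2, and 1 to 6 with 1 library left out (1 without WT library 4, 4 without WT library 2). All genes with such a p numbered 2266, against 1103 without the 3 libraries. Genes without overlap numbered 1285, against 4822 without the 3, 4886 without the 2 and 1787 to 2854 with 1 left out, where fewer libraries separate more easily; members without overlap numbered 2, against 11, 6 and 2 to 5. Positive members numbered 12 with the pan-neuronal covariate. As a share of the pan-neuronal sum, the summed Cck genes were 0.926-fold and the Ndnf and Lamp5 genes 0.944-fold in cKO.

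Replicate numbers do not pair the libraries: with the replicate block, Nxph1, Sst, Reln and Htr3a (12.1% of members, against 9.32% of all genes) had an unadjusted p under 0.05, and cKO libraries 2 and 3, but not 1 and 4, correlated best with their own number. The following log2 fold changes took the other sign. With the pan-neuronal covariate they were -0.16 for Gad1, -0.57 for Slc32a1, -0.80 for Lhx6, -0.34 for Sox6, -0.29 for Satb1, -0.12 for Nxph1, -0.064 for Dlx2, -0.60 for Dlx5, -0.66 for Dlx6, -0.59 for Nos1, -0.13 for Npy, 0.062 for Calb2, -0.22 for Reln and -0.063 for Kit. With array weights they were 0.013 for Gad2, -0.051 for Dlx5, 0.024 for Sp9 and -0.095 for Crh. With limma-voom they were -0.0096 for Dlx5 and 0.0029 for Lamp5. With quantile normalization they were 0.056 for Sp9 and -0.024 for Pvalb, and with the choroid plexus covariate -0.064 for Sox6 and -0.014 for Pvalb. Without the 3 libraries low in Mir8114 they were 0.065 for Gad2, 0.14 for Dlx1, -0.0034 for Dlx2, -0.21 for Crh, -0.010 for Pvalb, 0.17 for Erbb4 and 0.037 for Ndnf. Without the 2 libraries high in Zic1 they were 0.15 for Gad2, -0.028 for Sox6, 0.37 for Sp9, 0.13 for Pnoc, -0.14 for Pvalb, 0.16 for Calb2 and -0.011 for Cnr1. With 1 library left out the ranges crossed 0: -0.076 to 0.086 for Gad2, -0.13 to 0.42 for Lhx6, -0.079 to 0.15 for Sox6, -0.27 to 0.082 for Dlx1, -0.032 to 0.30 for Dlx2, -0.25 to 0.24 for Dlx5, -0.030 to 0.30 for Dlx6, -0.15 to 0.23 for Sp9, -0.0065 to 0.63 for Nos1, -0.14 to 0.24 for Crh, -0.28 to 0.0089 for Pnoc, -0.058 to 0.059 for Pvalb, -0.42 to 0.073 for Calb2 and -0.052 to 0.087 for Lamp5. The cause was not tested.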
